A study of Mus musculus with 203 samples.

Results

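Gpx3 and 9 other genes of antioxidant enzymes (Gpx1, Gpx4, Sod1, Sod2, Cat, Prdx1, Prdx2, Prdx5 and Txn1) were followed across single motor neurons of the mouse nucleus ambiguus (Amb), a hindbrain nucleus that sends axons to the heart, the lung and the larynx. These are 10 of the 24029 genes in the table of read counts, and they were chosen by name. Gpx3 was picked out because its level differs between heart-labeled and larynx-labeled neurons in these same counts, so its levels are given as a description. All 10 genes were read in at least 10% of the neurons of every type. A gene was compared where it reached that share in either type of a pair.

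AmbCardiac neurons had been labeled by fluorescent cholera toxin B injected into the pericardial space of C57BL/6 mice (C57BL/6NCrl in the methods) at postnatal day 1, and AmbLaryngeal neurons by the same tracer injected into the cricothyroid muscle of other mice of that strain and age. Labeled cell bodies were aspirated from brainstem slices at postnatal days 2 to 4 and sequenced by Smart-seq2, in which the cDNA of each neuron is amplified along its full length. The deposited annotation holds 53 ACP, 98 ACV and 52 Larynx neurons, all from wild type mice. The mice were anesthetized by cold and given buprenorphine for the injection, which opened the chest for heart labeling and the neck for larynx labeling. ACP and ACV are the cardiopulmonary and cardiovascular types into which AmbCardiac neurons were clustered. The labels do not give the mouse of a neuron, so each type counts as 1 sample, no test was made between types, and differences between the mice or the surgeries and the difference between heart and larynx cannot be told apart. ACP and ACV were moreover defined from these same counts.

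Total counts ran from 542162 to 3292763 per neuron. The ribosomal RNA gene Rn45s took 37 ± 13% of the counts in ACP neurons (SD, n = 53), 38 ± 15% in ACV (n = 98) and 58 ± 16% in Larynx (n = 52), so levels are given as counts per 10000 of a neuron's total without Rn45s. That total had a median of 1115375 in ACP, 1120511.5 in ACV and 560892 in Larynx neurons. All 9 listed markers of Amb motor neurons were read in every type. Of these, Phox2a was read in only 32.1% of ACP and 11.2% of ACV neurons against 67.3% of Larynx. Among markers of the types in the study, Calca averaged 21 per 10000 in Larynx against 0.528 in ACP and 0.228 in ACV. Pappa2 averaged 2.55 in ACP against 0.0136 in ACV, and Hoxa5 4.43 in ACV against 0.106 in ACP. Transcripts of glia were also present. The study's methods set a limit of 1800 counts of the astrocyte gene Apoe. It was exceeded in 11 ACP, 28 ACV and 0 Larynx neurons. These are raw counts, and Larynx neurons had the lower totals. Per 10000, Apoe had medians of 8.92 in ACP, 8.55 in ACV and 9.77 in Larynx neurons, and means of 12.4, 20.9 and 13.8.

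Cells make superoxide and hydrogen peroxide as by-products of respiration, and a chain of enzymes removes them. Superoxide dismutases turn superoxide into hydrogen peroxide, which catalase, the glutathione peroxidases and the peroxiredoxins then break down. The glutathione peroxidases draw on glutathione and the peroxiredoxins on thioredoxin. Gpx3 is the secreted glutathione peroxidase, best known as an enzyme of blood plasma made in the kidney, whereas Gpx1 works in the cytosol and mitochondria and Gpx4 reduces lipid peroxides in membranes.

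Gpx1, Gpx3 and Gpx4 differ from the rest in carrying selenocysteine in the active site. It is encoded by TGA, elsewhere a stop codon, and the 33 bases around that codon are shown because they mark these enzymes in the coding sequence and explain why selenium supply genes were listed with them. The sequences are from GENCODE vM21 transcripts (GRCm38, which is mm10) and read 5′ to 3′ along the coding strand, with the selenocysteine codon in capitals.
Gpx3: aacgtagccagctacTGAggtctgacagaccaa
Gpx1: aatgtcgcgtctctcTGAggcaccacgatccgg
Gpx4: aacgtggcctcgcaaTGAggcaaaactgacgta
The Gpx3 codon is the 73rd of the coding sequence and lies at chr11:54907256-54907258 on the plus strand, in exon 2 of 5. That of Gpx1 is at chr9:108339451-108339453 in exon 1 of 2, and that of Gpx4 is at chr10:80054737-80054739 in exon 3 of 7 of the transcript with the longest coding sequence. The same search found 0 codons of this kind in the coding sequences of the other 7 genes.

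Gpx3 (ENSMUSG00000018339, chr11:54902453-54910377, plus strand) was read at 5.72 ± 3.48 counts per 10000 in ACP neurons (SD, n = 53), 6.04 ± 3.55 in ACV (n = 98) and 1.39 ± 1.39 in Larynx (n = 52). Its values in ACP neurons ran from 0 through a median of 5.09 to 16. In ACV neurons they ran from 0 through 5.92 to 22, and in Larynx neurons from 0 through 0.969 to 7.78. The ranges therefore overlapped, but the middle of the heart-labeled neurons lay above nearly all Larynx neurons: the interquartile range was 3.41 to 7.07 in ACP and 3.53 to 7.79 in ACV against 0.463 to 2.03 in Larynx. In order of mean level, ACV and ACP neurons differed by less than the SD of either, and both exceeded Larynx neurons by more than the SD of any type.

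**Figure D1:**
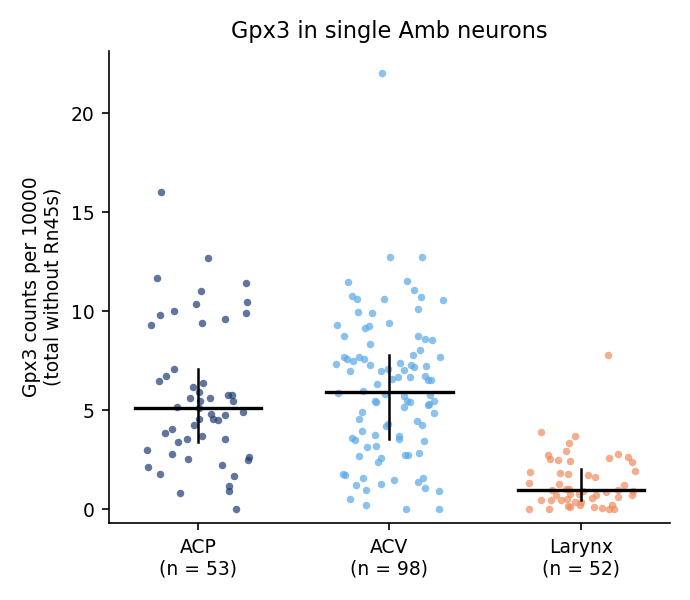
Gpx3 in counts per 10000 of each neuron's total without Rn45s (vertical axis, linear) for 53 ACP, 98 ACV and 52 Larynx neurons. Each point is a neuron, the horizontal bar is the median and the vertical bar the interquartile range. The medians of 5.09 and 5.92 in ACP and ACV lie above the interquartile range of Larynx neurons, which ends at 2.03.

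By ratio of means Gpx3 was 4.12-fold higher in ACP than in Larynx neurons (2.04 on the log2 scale) and 4.35-fold higher in ACV than in Larynx (2.12). These comparisons share the Larynx neurons. Only 1 of 52 Larynx neurons exceeded the ACP median, and only 1 exceeded the ACV median. Conversely, 3 of 53 ACP and 5 of 98 ACV neurons fell below the Larynx median. In 90.5% of all pairs of an ACP and a Larynx neuron the ACP neuron had more Gpx3, and in 89.7% of ACV and Larynx pairs the ACV neuron did.

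The difference was one of amount more than of presence. At least 1 Gpx3 read was found in 98.1% of ACP neurons (exact Clopper-Pearson 95% interval 89.9 to 99.95%), 97.96% of ACV (92.8 to 99.8%) and 92.3% of Larynx (81.5 to 97.9%). A level of at least 3 per 10000 was reached by 77.4% of ACP (63.8 to 87.7%), 78.6% of ACV (69.1 to 86.2%) and 7.69% of Larynx neurons (2.14 to 18.5%). Summed over neurons, Gpx3 had 37552 counts in ACP, 72530 in ACV and 4371 in Larynx, with exact Poisson 95% intervals of 37173 to 37934, 72003 to 73060 and 4242 to 4503. The intervals of the shares treat neurons as independent draws, whereas the mouse of each neuron is unknown. Those of the summed counts cover counting error of reads only, with PCR copies not told from separate molecules.

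Gpx3 was picked for its difference from Larynx neurons, so its place among all genes is a description and no support for that difference. Set against all genes compared, 3.20% were higher in ACP than in Larynx neurons by as much as Gpx3 and 3.08% were higher in ACV by as much. Among genes at 1 or more per 10000 in either type of the pair those shares were 0.873% and 0.739%. Gpx3 was the single gene of the 10 whose interquartile ranges stood apart in ACP against Larynx neurons, where 0.287% of genes stood apart on the higher side, and in ACV against Larynx, where 0.286% did. None of the 10 stood apart as lower, against 0.151% and 0.369% of genes. No interquartile ranges of the 10 genes were apart between ACP and ACV neurons, where 0.307% of genes stood apart as higher and 0.165% as lower in ACP. The genes behind these shares were read in 10% or more of either type, so they include genes read in far fewer neurons than these 10.

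The share of counts on Rn45s and the raw counts of Apoe differed between the types. The Gpx3 ratio was therefore also read within limits of each, which do not make the types alike. Among neurons with at most 50% of counts on Rn45s it was 5.46 in ACP over Larynx (45 and 15 neurons) and 6.25 in ACV over Larynx (76 and 15). Above 50% it was 3.60 (8 and 37 neurons) and 2.69 (22 and 37). Without the neurons above 1800 counts of Apoe the ratios were 4.21 and 4.76. Summed over the 10 astrocyte markers, levels averaged 21.4 ± 21.5 per 10000 in ACP, 32.8 ± 48.5 in ACV and 22.8 ± 25.4 in Larynx neurons, all 10 of them read in every type. That sum ran from 0.130 to 96.1 in ACP, 0.296 to 307 in ACV and 0.445 to 168.5 in Larynx neurons. The 10 microglial markers summed to 1.73 ± 2.15, 5.85 ± 15.5 and 3.60 ± 6.53, and the 10 endothelial and mural markers to 0.338 ± 0.837, 0.296 ± 0.862 and 2.79 ± 12. Within types Gpx3 was not higher in neurons with more astrocyte transcripts, with Spearman correlations of -0.08 in ACP, -0.33 in ACV and -0.13 in Larynx. For the microglial sum these were 0.04, -0.08 and 0.15. With the share of counts on Rn45s, Gpx3 correlated at 0.10 in ACP, -0.35 in ACV and -0.06 in Larynx neurons. With the number of genes detected it correlated at -0.15, 0.02 and -0.33.

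**Figure D2:**
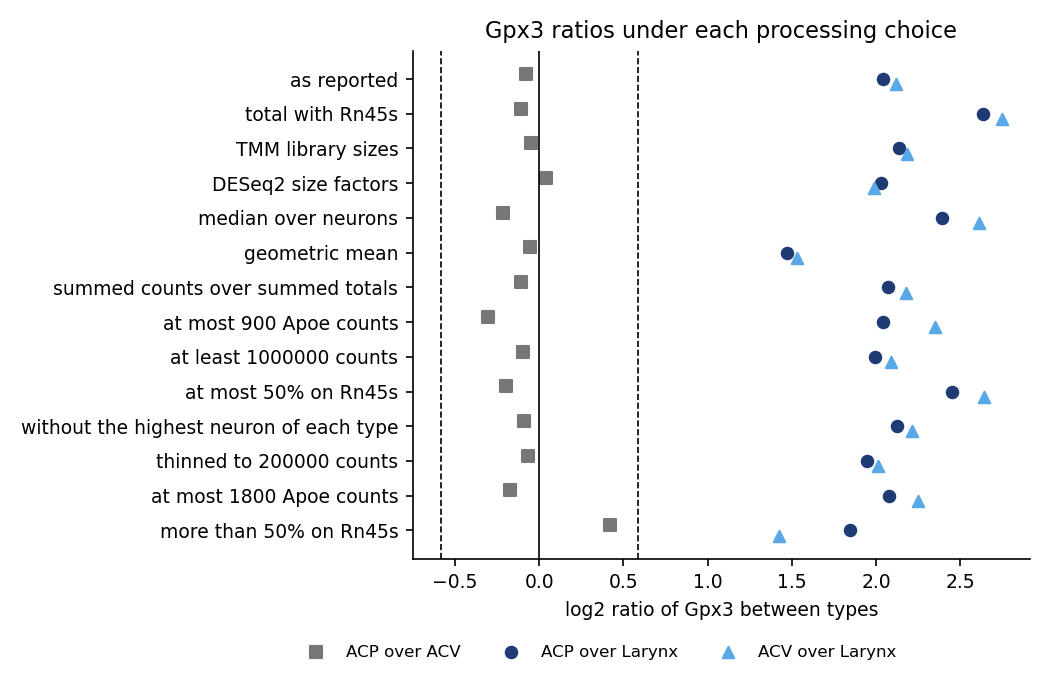
The log2 ratio of Gpx3 between types (horizontal axis) as reported and under 13 other choices of scaling, averaging or neurons (vertical axis). The geometric mean is of values plus 1. Symbols mark the 3 pairs of types and dashed lines a 1.5-fold difference. ACP over Larynx ran from 1.47 to 2.64 and ACV over Larynx from 1.43 to 2.75, all beyond the line, while ACP over ACV ran from -0.31 to 0.42.

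Between ACP and ACV neurons Gpx3 differed little. Its ratio of ACP to ACV was 0.947 (-0.08 on the log2 scale), and an ACP neuron exceeded an ACV neuron in 45.9% of pairs.

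The other selenium enzymes stayed within 1.5-fold between all types on this scale. Gpx1 (chr9:108338903-108340343, plus strand), the abundant cytosolic peroxidase of most tissues, had 1.90 ± 1.09 counts per 10000 in ACP neurons (n = 53), 2.35 ± 1.56 in ACV (n = 98) and 2.33 ± 1.95 in Larynx (n = 52). Its highest neurons were at 5.72, 7.93 and 8.18, and its medians of 1.77, 2.00 and 2.01 lay close together. Gpx4 (chr10:80047166-80056439, plus strand), which shields membranes from lipid peroxidation, had 2.05 ± 1.08, 2.52 ± 1.03 and 2.52 ± 1.33. Both were lower in ACP than in ACV and Larynx neurons, Gpx1 with log2 ratios of -0.31 and -0.30 and Gpx4 with -0.30 and -0.30, and close to equal in ACV and Larynx neurons (0.01 and 0.00). The ratios to Larynx depended on Rn45s. Among neurons with at most 50% of counts on Rn45s, Gpx1 was 1.28 in ACP over Larynx and 1.55 in ACV over Larynx, and Gpx4 was 1.01 and 1.24. With Rn45s in the totals they were 1.42 and 1.70 for Gpx1 and 1.37 and 1.62 for Gpx4, so the direction in ACP over Larynx turned. The median over all genes moved as well. On the log2 scale Gpx1 and Gpx4 were then 0.50 and 0.46 in ACP over Larynx, beside 0.58 over all genes. In ACV over Larynx they were 0.77 and 0.69, beside 0.52. Of the 75-base windows of Gpx4 transcripts 55.3% also occur in transcripts of Gpx4-ps2 or AC122253.3, so its count is uncertain.

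Sod1 (chr16:90220754-90226329, plus strand), the copper and zinc superoxide dismutase of the cytosol, stood second to Gpx3. It had 4.67 ± 2.59 counts per 10000 in ACP neurons (lowest 0.465, median 4.17, highest 14.9), 4.92 ± 2.27 in ACV (1.12, 4.78 and 12.4) and 3.27 ± 1.96 in Larynx (0.209, 2.84 and 8.24). Every neuron of all types held a read of it. The types overlapped widely, since 14 of 52 Larynx neurons exceeded the ACP median and 10 the ACV median. The ratio of means was 1.43 in ACP over Larynx and 1.504 in ACV over Larynx. The latter lay at the 1.5-fold limit. It fell below that limit with DESeq2 size factors (1.44), after thinning to 200000 counts (1.49) and in neurons above 50% on Rn45s (1.30). It also did so by geometric mean of values plus 1 (1.42), which draws ratios toward 1. The ratio in ACP over Larynx passed the limit among neurons with at most 50% on Rn45s (1.72) or at most 900 Apoe counts (1.54). It also passed with summed counts (1.55). Sod1 shares 12.2% of its 75-base windows with Gm8566. Ccs, the chaperone that loads copper into Sod1, was at 0.373 ± 0.484 in ACP, 0.533 ± 0.633 in ACV and 0.248 ± 0.438 per 10000 in Larynx neurons, 1.503-fold and 2.15-fold higher in ACP and ACV than in Larynx.

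Sod2 (chr17:13006846-13040063, plus strand) encodes the manganese superoxide dismutase of mitochondria. It had 1.45 ± 0.886 counts per 10000 in ACP, 1.84 ± 1.01 in ACV and 1.52 ± 1.11 in Larynx neurons, with medians of 1.64, 1.73 and 1.49. No ratio passed 1.5-fold, and the log2 ratio was largest in ACP over ACV, at -0.34. Among neurons with more than 50% on Rn45s it was -0.60 in ACP over Larynx (8 and 37 neurons), beside a median of -0.32 over all genes. Cat (chr2:103453849-103485160, minus strand), the catalase of peroxisomes, had 1.76 ± 1.72, 1.40 ± 1.10 and 1.51 ± 1.16. Over all types together it was the gene most often without a read: 4 of 53 ACP, 16 of 98 ACV and 3 of 52 Larynx neurons had none. In ACP alone Sod2 lacked a read in more neurons (5), as did Gpx3 in Larynx (4). The mean of Cat was highest in ACP neurons but its median was lowest there, at 1.15 against 1.17 in ACV and 1.33 in Larynx. The highest ACP neuron was at 8.33, the highest ACV at 4.97 and the highest Larynx at 4.04. The extracellular dismutase Sod3 was read in 18.9% of ACP, 10.2% of ACV and 9.62% of Larynx neurons.

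Peroxiredoxins reduce hydrogen peroxide through a reactive cysteine that thioredoxin restores. Prdx2 (chr8:84969587-84974834, plus strand), a cytosolic form, had 7.0 ± 3.4 counts per 10000 in ACP neurons (lowest 0, median 6.53, highest 19.1), 8.06 ± 3.96 in ACV (1.30, 7.77 and 25.1) and 7.33 ± 3.67 in Larynx (3.12, 5.93 and 16.1). Prdx1 (chr4:116685544-116700822, plus strand), its close cytosolic relative, had 2.96 ± 1.57, 3.79 ± 1.82 and 2.76 ± 1.72. Prdx1 was highest in ACV neurons, 1.28-fold over ACP and 0.46 on the log2 scale over Larynx, and 12 of 52 Larynx neurons exceeded the ACV median. Its ratio in ACV over Larynx was 1.95 among neurons with at most 50% on Rn45s. Prdx5 (chr19:6906697-6910106, minus strand), found in mitochondria and peroxisomes, was the most even of the 10, at 3.22 ± 2.00, 3.36 ± 1.44 and 3.34 ± 1.79. Txn1 (chr4:57943373-57956411, minus strand), the cytosolic thioredoxin, had 2.74 ± 1.48, 3.20 ± 1.51 and 2.93 ± 1.49, and every neuron held a read of it. Exons of Prdx2 overlap Rnaseh2a and Junb, and those of Prdx5 overlap Trmt112, on the opposite strand. How strand was treated in counting is not given in the sources used here, so reads in the overlaps cannot be assigned. Prdx1 and Prdx2 also share 5.63% and 5.59% of their windows with other transcripts.

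**Figure D3:**
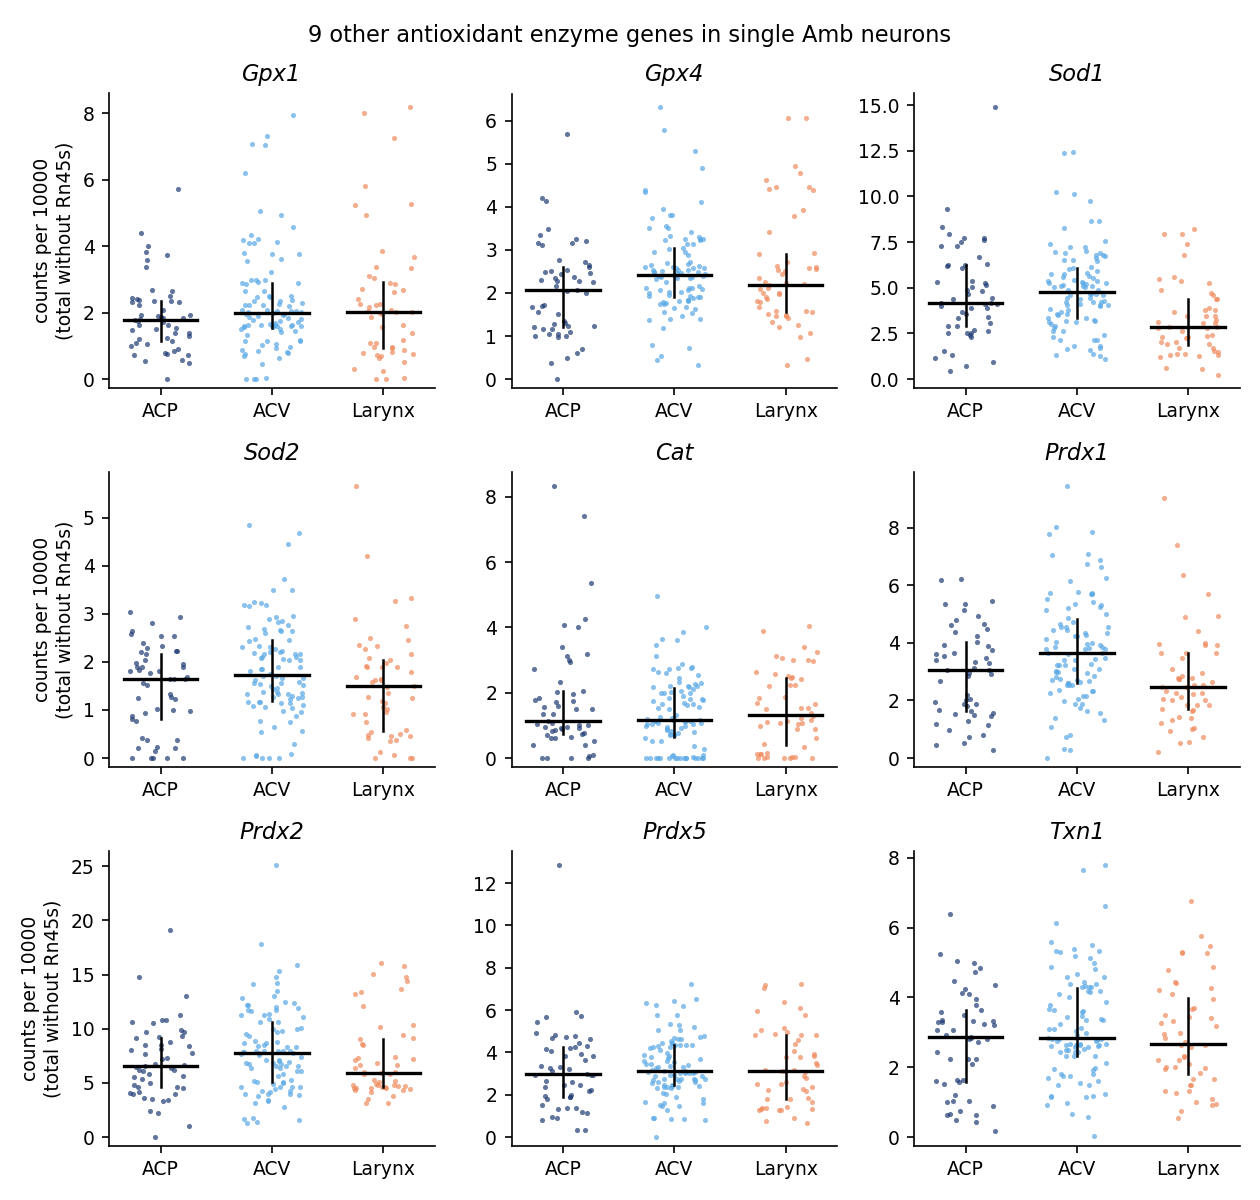
The 9 genes other than Gpx3, each in a panel with its own linear vertical axis, in counts per 10000 of the total without Rn45s for ACP, ACV and Larynx neurons. Points are neurons, horizontal bars medians and vertical bars interquartile ranges. The interquartile ranges of the 3 types overlap in every panel.

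Counted over the 10 genes, 1 of 10 was at least 1.5-fold higher in ACP than in Larynx neurons, Gpx3, against 19.5% of the 13256 genes compared. In ACV over Larynx 2 of 10 were, Gpx3 and Sod1, against 20.2% of 13297 genes. None was 1.5-fold lower in either, against 22.2% and 24.6% of genes. These counts lie near or below the share of all genes, and Gpx3 was chosen for its contrast. With totals that include Rn45s, 6 and 8 of the 10 passed as higher, against 49.9% and 46.3% of genes, with 9.11% and 12% of genes lower. The median of all genes then stood at 0.58 and 0.52 on the log2 scale, all 10 means were higher in ACP and in ACV than in Larynx neurons, and relative to that median 2 and 3 of the 10 passed. In ACP over ACV 0 of 10 passed in either direction, against 18.5% of 13356 genes higher and 16% lower. The median log2 ratio of the 10 was -0.06 in ACP over Larynx, 0.13 in ACV over Larynx and -0.21 in ACP over ACV, beside -0.03, -0.02 and 0.00 over all genes.

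The small differences between ACP and ACV ran mostly one way. In ACP the mean was lower for 9 of 10 genes, with log2 ratios from -0.06 in Prdx5 to -0.36 in Prdx1, and higher for Cat alone (0.33). Over all genes compared 49.8% were lower in ACP. With DESeq2 size factors, with totals that include Rn45s or among neurons with at most 900 Apoe counts 8 of 10 were lower. Among neurons with more than 50% on Rn45s (8 ACP and 22 ACV) 6 of 10 were, with a median log2 ratio of -0.15 beside -0.32 over all genes. Each of these differences was smaller than the SD over the neurons of either type.

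**Figure D4:**
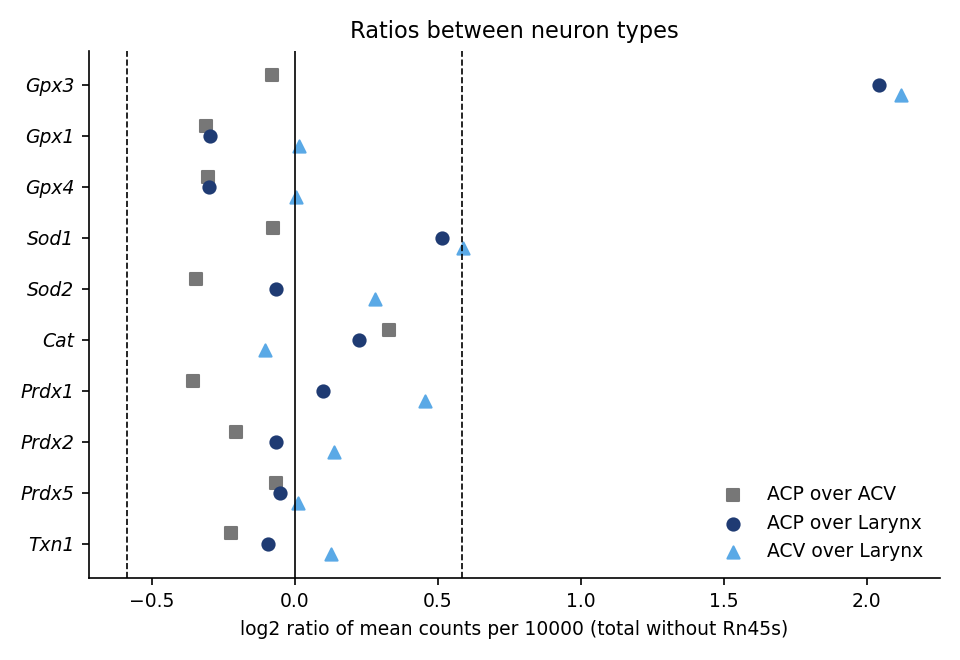
The log2 ratio of mean counts per 10000 between types (horizontal axis) for each of the 10 genes (vertical axis), with a symbol for each pair of types and dashed lines at a 1.5-fold difference in either direction. Gpx3 lies at 2.04 and 2.12 in ACP and ACV over Larynx, and the other points lie between -0.36 and 0.59.

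Levels of different genes were compared per kb of the principal annotated transcript. On that scale Sod1 led in every type, at 7.29 ± 4.03 per 10000 per kb in ACP, 7.67 ± 3.55 in ACV and 5.10 ± 3.06 in Larynx neurons, followed by Prdx2 at 4.34 ± 2.14, 5.0 ± 2.5 and 4.55 ± 2.28. Gpx3 was the third in ACP and ACV, at 3.59 ± 2.18 and 3.79 ± 2.23, and the eighth in Larynx, at 0.872 ± 0.871. Txn1, Prdx5, Gpx4 and Gpx1 formed the next group, between 1.77 and 3.04 in all types, with neighbors differing by less than their SD. Prdx1 was between 1.21 and 1.65, Cat between 0.537 and 0.674, and Sod2 was lowest, between 0.248 and 0.315. The order depends on the transcript taken. With all annotated exons merged, Sod1 counts 3970 bases in place of 641 and ranks 7th in ACP, 8th in ACV and 7th in Larynx, while Gpx3 ranks 1st in ACP and ACV and 8th in Larynx.

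Within a type, levels of the 9 other genes tended to go together from neuron to neuron, while the correlations of Gpx3 with them were mostly weak and of either sign. Neurons share amplification and depth, so these Spearman correlations are descriptions. No share over pairs of all genes is given beside them, so whether these 9 go together more than other genes do is not known. Averaged over the 3 types, all 36 pairs among the other 9 genes were above 0, from 0.02 to 0.56 with a median of 0.32. Within a type 35 of 36 were above 0 in ACP, 35 in ACV and 34 in Larynx neurons. The highest were Prdx1 with Prdx2 (0.63 in ACP, 0.62 in ACV and 0.44 in Larynx) and Gpx4 with Txn1 (0.63, 0.58 and 0.44). The 9 pairs with Gpx3 ran from -0.14 to 0.06 on average over types, with a median of -0.08. Within a type they ran from -0.35 (Cat) to 0.10 (Sod1) in ACP, from -0.18 (Prdx2) to 0.15 (Sod2) in ACV and from -0.38 (Sod1) to 0.06 (Cat) in Larynx neurons. With the total without Rn45s, Gpx3 correlated at 0.07, 0.24 and 0.11 in ACP, ACV and Larynx neurons, and the other 9 averaged from -0.06 to 0.27.

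**Figure D5:**
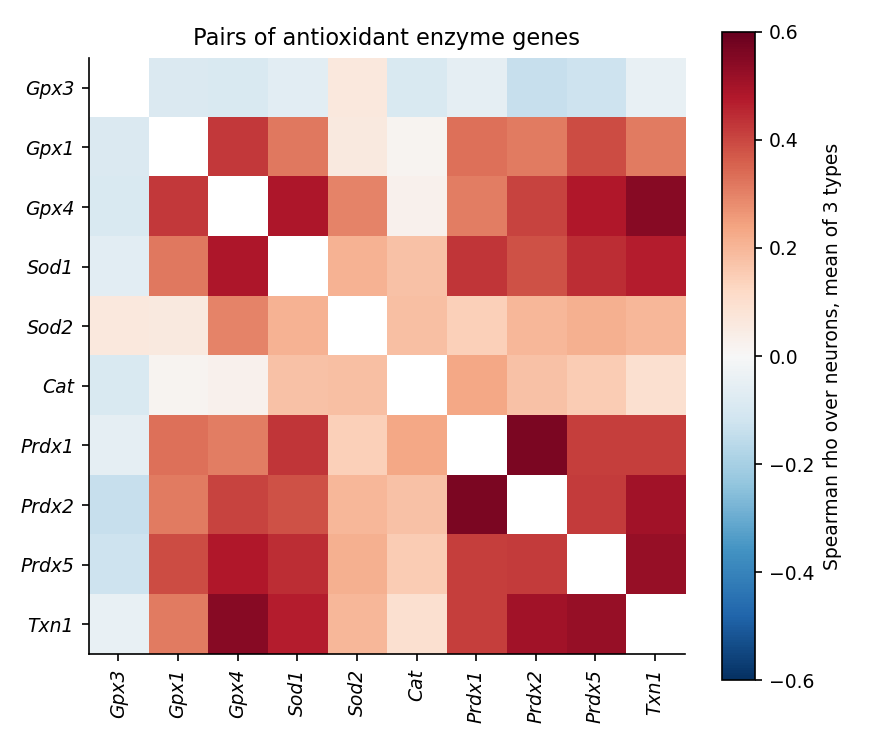
Spearman correlation over neurons for each pair of the 10 genes, averaged over ACP (n = 53), ACV (n = 98) and Larynx (n = 52), as color. The row and column of Gpx3 lie between -0.14 and 0.06, and the pairs among the other 9 genes between 0.02 and 0.56.

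Among 7721 genes read in at least 50% of all neurons, those most like Gpx3 within types were Resp18, a protein of the regulated secretory pathway (mean Spearman correlation 0.52), Saraf, a regulator of store-operated calcium entry (0.50), Ache, acetylcholinesterase (0.48), Tecr, an enzyme of very long chain fatty acid synthesis (0.47), and Slc18a3, the vesicular acetylcholine transporter (0.46). The correlation with Slc18a3 was 0.49 in ACP, 0.45 in ACV and 0.46 in Larynx neurons, whereas the other 9 genes averaged from -0.27 to 0.04 with it. Between types Slc18a3 ran the other way from Gpx3, at 10.4 ± 5.92 per 10000 in ACP, 6.90 ± 4.85 in ACV and 15 ± 10.4 in Larynx. Ache was near even, at 12 ± 8.0, 10.7 ± 6.59 and 11.2 ± 7.09, and Saraf was 1.96-fold higher in ACP and 1.62-fold higher in ACV than in Larynx neurons.

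The wider pathway was read from lists of related genes. In the glutathione peroxidase family 5 of 8 genes were compared. Gpx7, an enzyme of the endoplasmic reticulum, was at 0.31 per 10000 in ACP, 0.30 in ACV and 0.20 in Larynx neurons, and Gpx8, also of the endoplasmic reticulum, at 0.093, 0.21 and 0.071, all far below Gpx3. Over all lists, 14 of 64 genes other than the 10 were at least 1.5-fold higher and 10 lower in ACP than in Larynx neurons, beside 19.5% and 22.2% of all genes. In ACV over Larynx 18 of 63 were higher and 6 lower, beside 20.2% and 24.6%, and in ACP over ACV 8 of 64 were higher and 10 lower, beside 18.5% and 16%.

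Glutathione synthesis, recycling and transfer supplies the thiol that Gpx1, Gpx3 and Gpx4 draw on. Of its 16 listed genes 8 were higher and 1 lower in ACV than in Larynx neurons, with a median log2 ratio of 0.44. Of all genes 20.2% were higher and 24.6% lower in that comparison. In ACP over Larynx 3 of the 16 were higher and 4 lower (median -0.22), beside 19.5% and 22.2% of all genes. In ACP over ACV 0 of the 16 were higher and 4 lower (median -0.25), beside 18.5% and 16%. Slc7a11, a subunit of the cystine importer, was at 0.0903 ± 0.125 per 10000 in ACP, 0.135 ± 0.182 in ACV and 0.0458 ± 0.177 in Larynx neurons, and at least 1 read was found in 54.7%, 73.5% and 26.9% of neurons. Gstm1, a glutathione transferase, was 2.14-fold higher in ACV than in ACP neurons (2.30 ± 2.19 against 1.08 ± 1.02, with 1.52 ± 1.502 in Larynx). The astrocyte sum above was likewise higher in ACV than in ACP neurons by mean, and its part in this was not tested.

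Of the genes for selenoprotein synthesis and selenium supply, 3 of 10 were higher and 0 lower in ACP than in Larynx neurons, with a median log2 ratio of 0.30, beside 19.5% and 22.2% of all genes. In ACV over Larynx 4 were higher and 2 lower (median 0.18), beside 20.2% and 24.6% of all genes. In ACP over ACV 1 was higher and 0 lower (median 0.07), beside 18.5% and 16%. Sephs2, which makes the selenium donor, was at 0.518 ± 0.674, 0.721 ± 0.740 and 0.712 ± 0.965 per 10000 in ACP, ACV and Larynx neurons. Lrp8, a receptor that takes up selenium bound to protein, was at 0.606 ± 0.941, 0.420 ± 0.808 and 0.662 ± 1.16. Neither was higher in both heart-labeled types, unlike Gpx3.

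Of the 10 thioredoxin and glutaredoxin genes other than Txn1, 1 was higher and 1 lower in each of the 3 comparisons, with medians of 0.02 in ACP over Larynx, -0.04 in ACV over Larynx and 0.10 in ACP over ACV. Of all genes 18.5% to 20.2% were higher and 16% to 24.6% lower in these comparisons. Among the 4 genes listed with Prdx1, Prdx2 and Prdx5, Srxn1, which repairs overoxidized peroxiredoxins, was 0.89 and 0.86 on the log2 scale higher in ACP and ACV than in Larynx neurons, and Prdx6 had log2 ratios of -0.94 in ACP over Larynx and -0.76 in ACP over ACV. Both were named after their values were seen. Of 10 genes of the Nrf2 pathway, which switches on antioxidant genes, 2 were higher and 2 lower in ACP over Larynx and 2 higher and 1 lower in each of the other comparisons, beside the same shares of all genes. Of 8 methionine sulfoxide reductases, sestrins and metallothioneins, 1 was higher and 2 lower in ACP over Larynx (beside 19.5% and 22.2% of all genes). In ACV over Larynx 0 of the 8 were higher and 0 lower, beside 20.2% and 24.6% of all genes. In ACP over ACV 2 of the 8 were higher and 2 lower, beside 18.5% and 16%.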

How the data were processed

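Reads were trimmed by the authors (Skewer) and mapped to mm10 with STAR 2.6.1d, and the deposited values are raw counts per gene and neuron that were not normalized. The counting program and annotation are not given in the sources used here. A second deposited table, named CPM, was not used, since its values do not match the totals of their own neurons. Counts were divided by each neuron's total without Rn45s and multiplied by 10000. Types were taken from the deposited annotation.

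With the mouse not in the labels, no test was made. Means, SD over neurons, and ratios of means were computed, with 1.5-fold as the size limit, over genes with a read in 10% or more of either type. The members and gene lists were chosen with earlier results of these data known. Genes of the lists other than the 10 were named where they passed 2-fold in a ratio and were read in at least 50% of the neurons of a type, at most 4 per list, with Lrp8 and Sephs2 in any case, and the 5 genes most like Gpx3 by Spearman correlation. Gpx7, Gpx8, Sod3, Srxn1 and Prdx6 were added after their values were seen. 12 listed symbols, most of them selenoproteins, matched no row and were not analysed here. Of the alternatives, the limit of 1800 Apoe counts, the neurons with more than 50% on Rn45s and the merged exons were chosen after seeing the data. A ratio of means was also computed separately on simulated counts with known folds. That check did not run the calculation behind the reported ratios. Python 3.11.15, numpy 2.4.6, pandas 2.3.3, scipy 1.17.1, matplotlib 3.10.9, edgeR 4.0.16 (TMM sizes only) and DESeq2 1.42.0 (size factors only) were used.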

Additional observations from a re-analysis of the deposited data

How the results depend on the processing

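Gpx3 stayed at least 1.5-fold higher in ACP and ACV than in Larynx neurons under all 13 alternatives. Its log2 ratios ran from 1.47 to 2.64 and from 1.43 to 2.75, and it stayed within 1.5-fold between ACP and ACV. Among neurons with more than 50% on Rn45s (8 ACP and 22 ACV) Gpx3 was 1.34-fold higher in ACP than in ACV. The median log2 ratio over all genes was -0.32 there, and relative to it Gpx3 was 1.68-fold higher in ACP. The 1.47 came from the geometric mean of values plus 1, which draws ratios toward 1. Of the 27 ratios of the other 9 genes, each under 13 alternatives, 330 values kept their side of 1.5-fold, 17 passed it newly (of Gpx1, Gpx4, Sod1, Sod2, Cat, Prdx1, Prdx2 and Txn1, all in a ratio to Larynx), and 4, all of Sod1 in ACV over Larynx, fell below it. The number of the 10 genes at least 1.5-fold higher in ACP than in Larynx neurons, 1 as reported, was 6 with totals that include Rn45s and 2 with summed counts, with at most 900 Apoe counts or with at most 50% on Rn45s. In ACV over Larynx it was 2 as reported, 8 with Rn45s and 4 with at most 50% on Rn45s. It was 1 with DESeq2 size factors, geometric means of values plus 1, thinning or more than 50% on Rn45s. In ACP over Larynx 1 gene, Sod2, was lower with more than 50% on Rn45s. The median log2 ratio over all genes was -0.32 there, and relative to it 0 of the 10 genes were lower. With totals including Rn45s the median over all genes moves to 0.58 in ACP over Larynx and 0.52 in ACV over Larynx on the log2 scale, and relative to it 2 and 3 of the 10 genes were higher. The shares of all genes past the limit became 49.9% higher and 9.11% lower in ACP over Larynx and 46.3% higher and 12% lower in ACV over Larynx with Rn45s. At 2-fold they were 9.87% higher and 8.63% lower in ACP over ACV, 10.3% and 12.5% in ACP over Larynx, and 10.4% and 14% in ACV over Larynx. Among genes read in at least 50% of either type 8.01% were lower in ACP than in ACV. The cause of these shifts was not tested. No paired analysis was possible because each sample is 1 neuron with no replicate number, and no result comes from a test.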
